A study of Homo sapiens with 6 samples.

Results

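The genes that carry a cell from G1 into S phase and copy its DNA were followed without and with queuine in HEK293T, a widely used line derived from human embryonic kidney. The set held 45 of the 63086 genes in the deposited table. They were taken by gene symbol and grouped by role, with 12 genes of the replicative helicase, 4 of origin licensing, 13 of the polymerases and the fork, 3 of nucleotide supply, 8 G1 cyclins and their kinases, and 5 regulators and others. All 45 passed the filter on low counts, with 74 to 5367 counts per gene in the 3 libraries of 100Q and 100 to 4408 in the 3 libraries of 0Q. The 0Q cells grew in DMEM whose serum had been dialyzed, a medium labelled as free of queuine. The 100Q cells were 0Q cells given queuine for 24 hours, at 100 nM by the sample characteristics and at 1 µM by the treatment protocol, a disagreement within the labels. Both groups are the same line, and the labels say only that each was grown in triplicate. The p-values below therefore measure the spread between these libraries, which may be technical.

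Queuine is a modified base from diet and gut microbes. Mammalian cells exchange it for a guanine in the anticodon of the tRNAs that carry tyrosine, histidine, asparagine or aspartate, and the result is called queuosine. The series title connects this modification with codon usage and proliferation, which is the question the replication genes bear on. In G1, D-type cyclins with CDK4 and CDK6 and then cyclin E with CDK2 phosphorylate the RB family and release E2F transcription factors. E2F proteins switch on many genes of DNA synthesis. Origins are licensed when ORC, CDC6 and CDT1 load the MCM2 to MCM7 ring, which CDC45 and the GINS complex turn into the active helicase. HEK293T cells carry the large T antigen of SV40 and adenoviral E1A, both of which are known to bind RB proteins and release E2F.

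Library totals ran from 7264638 to 8035251 estimated counts in 0Q and from 4023956 to 11398835 in 100Q. All 11 markers of the line fixed for this check were above 1 CPM (counts relative to library size, with TMM factors), with VIM highest. Their summed level was 1324 to 1332 CPM in 0Q and 1166 to 1275 CPM in 100Q, and the part of this in the results below was not tested. The library 100Q replicate 2, the shallowest, stood apart from the others on the first principal component. The blood markers PTPRC, CD3E and LYZ had 0 counts in all 6 libraries. The hepatocyte and muscle lists summed to at most 1.85 and 2.52 CPM in a library, and the fibroblast list, nearly all COL1A1, to 29.4 to 32.5 CPM in 0Q and 32.0 to 36.2 CPM in 100Q.

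Promoters of these genes are known for E2F sites, and the sequences below show exact matches to E2F-type letters near the start of transcription. A match does not show a working site, and a gene without one may hold a site of another form. Windows of 300 bases, 250 before and 50 after the start, were available from RefSeq (GRCh38.p14) for 38 of the 45 genes. Both strands were searched for TTTCGCGC and TTTGGCGC, and overlapping matches were counted as 1 site. A match was found in 12 of the 38 genes (31.6%), against 382 of all 27305 genes with a window (1.40%). The 12 genes held 13 sites, printed here with 8 bases on each side in the gene's own orientation. Capitals mark the match, and positions count from the start base as 0.
MCM6 (chr2:135876576-135876603, minus strand, from -152): gctttgcaTTTGGCGCGAAAtccctttc
MCM6 (chr2:135876514-135876541, minus strand, from -90): tggtcaggTTTGGCGCGAAAtctccagc
MCM2 (chr3:127598405-127598432, plus strand, from 2): gaaccactTTTCGCGCGAAAcctggttg
MCM3 (chr6:52284731-52284754, minus strand, from -4): tcggaagtTTTCGCGCcggggtgg
MCM7 (chr7:100101391-100101414, minus strand, from -9): gggcgacgTTTCGCGCcaatttcg
GINS1 (chr20:25407670-25407693, plus strand, from 5): tttgttcgGCGCCAAAgcgcggag
CDC6 (chr17:40287878-40287901, plus strand, from 7): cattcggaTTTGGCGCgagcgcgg
POLA1 (chrX:24693773-24693796, plus strand, from -137): atcacaggGCGCCAAAcgcgcgtc
POLA2 (chr11:65261901-65261924, plus strand, from -53): gctcccggTTTCGCGCatgcgtgc
POLE (chr12:132687345-132687368, minus strand, from -18): gtgggagcGCGCCAAAtttctccc
E2F1 (chr20:33686390-33686413, minus strand, from -20): aaaaaggaTTTGGCGCgtaaaagt
E2F2 (chr1:23531260-23531283, minus strand, from -42): gcacgacgTTTGGCGCtaaaaaaa
UHRF1 (chr19:4909976-4909999, plus strand, from -160): gagcccgaTTTCGCGCgccctgag

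Of the 13 sites, 9 began within 60 bases of the start, and 3 were 12 bases long because a match on each strand overlapped. Among genes with a window, a match was found in 5 of 9 helicase genes, 3 of 5 regulators and others, 3 of 13 polymerase and fork genes and 1 of 4 origin genes. None was found in the 3 genes of nucleotide supply or in the 4 G1 cyclins and kinases with a window. MCM6, which encodes 1 of the ring's subunits, was the gene with 2 sites. PCNA, the sliding clamp that holds polymerases on DNA, had the smallest p of the 45 genes, and neither of its 2 windows, at chromosome 20, 5119909 to 5120208 and 5126573 to 5126872, held a match to these letters. The bases before the first of these starts and before that of MCM6 are shown for comparison, with matches in capitals. The PCNA stretch is chr20:5119959-5120208 and the MCM6 stretch chr2:135876444-135876693, both on the minus strand of GRCh38.p14.
PCNA: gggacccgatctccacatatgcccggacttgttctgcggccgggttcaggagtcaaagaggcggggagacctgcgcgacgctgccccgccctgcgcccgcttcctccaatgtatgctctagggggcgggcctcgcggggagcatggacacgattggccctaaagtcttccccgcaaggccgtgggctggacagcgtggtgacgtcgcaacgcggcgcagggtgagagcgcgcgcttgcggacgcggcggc
MCM6: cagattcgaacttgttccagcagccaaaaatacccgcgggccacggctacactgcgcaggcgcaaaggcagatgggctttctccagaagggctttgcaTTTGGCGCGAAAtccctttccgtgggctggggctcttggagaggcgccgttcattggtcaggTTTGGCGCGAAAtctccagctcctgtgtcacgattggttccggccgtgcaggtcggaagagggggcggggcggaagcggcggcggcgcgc

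The comparison of supplemented with depleted cells found no replication gene that passed. The edgeR quasi-likelihood test called 0 of 45 at a Benjamini-Hochberg adjusted p under 0.05 over all genes, DESeq2 called 0 and limma-voom called 0. Over all 14905 tested genes edgeR called 0.0134%, and the background shares of DESeq2 and limma-voom were 0.0738% and 0.00671%. At an unadjusted p under 0.05 there was 1 gene of the 45, PCNA, lower in 100Q (all genes, 4.72% in either direction, 2.49% higher and 2.23% lower). The groups did not overlap for 5 of the 45, 3 higher and 2 lower in 100Q (all genes, 10.6%, with 5.39% higher and 5.2% lower), a share near the background. The median log2 fold change (100Q minus 0Q) of the 45 was -0.028, with 27 of 45 negative (all genes, median -0.0027 and 50.6% negative). Leaving out 1 library moved the median of the 45 between -0.042, without 0Q replicate 3, and -0.012, without 100Q replicate 3.

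The intervals of these genes were narrow. The 95% interval of the fold change lay within 1.5-fold in either direction for all 45, against 58.2% of all genes and 89.1% of the 9118 genes in the same range of level, 15.9 to 523 CPM. It lay within 1.25-fold for 32 of 45, against 22.6% of all genes and 35.1% of that range. The median SE was 0.098 on the log2 scale for the 45 genes and 0.13 for genes of that range. Levels were not matched within the range, so the part of level in this difference was not tested. In bulk RNA, fewer cells in S phase and less RNA per cell cannot be told apart.

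**Figure D1:**
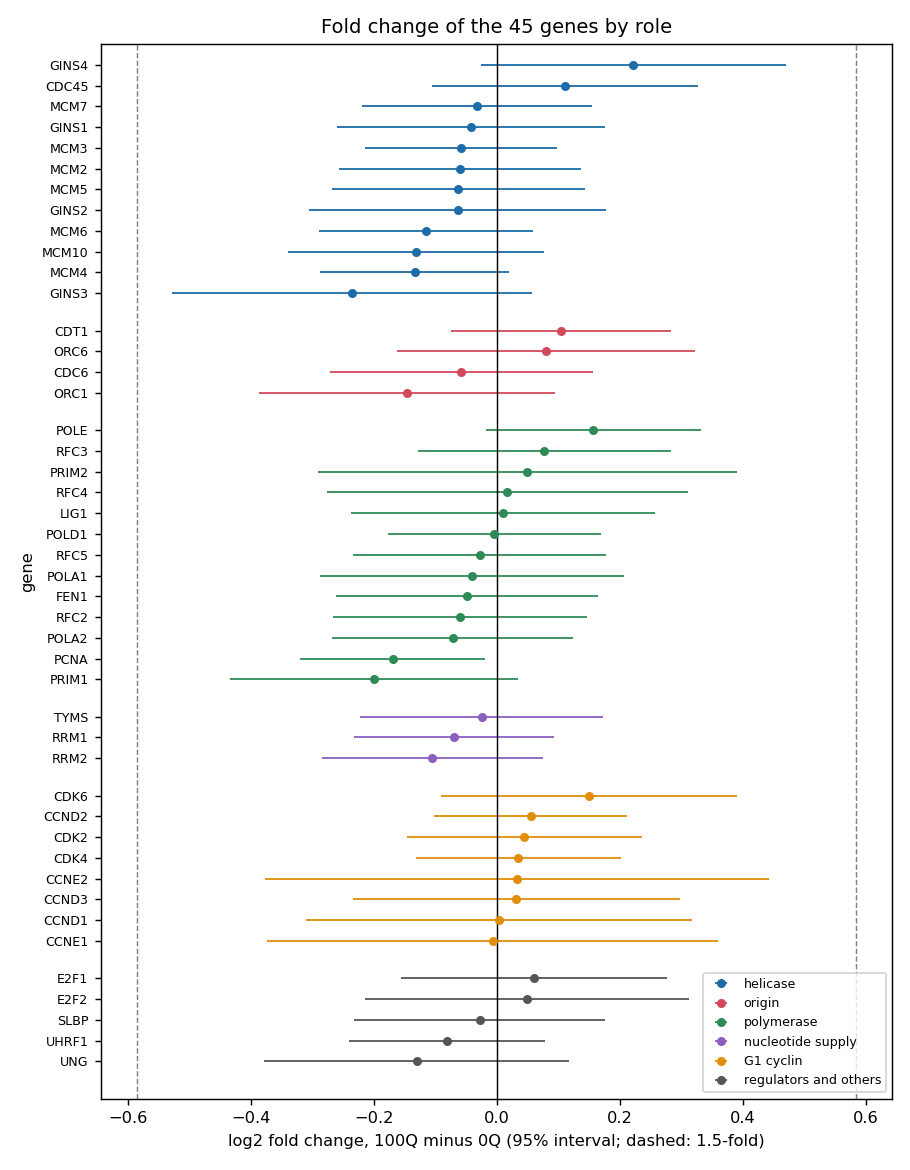
Log2 fold change of each of the 45 genes (points, 100Q minus 0Q) with its 95% interval (bars), grouped by role, with dashed lines at 1.5-fold. All 45 intervals lie between the dashed lines, and PCNA is the gene whose interval leaves out 0.

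The helicase genes, the motor that unwinds DNA at the fork, were mostly a little lower in 100Q. Of 12, 10 had negative log2 fold changes and 2 were positive, with a median of -0.061, which was -0.10 without 100Q replicate 2 and -0.095 without 0Q replicate 3. MCM4, a subunit of the ring, was at 460, 494 and 485 CPM in 0Q and 423, 427 and 460 CPM in 100Q. The groups met at a single pair of libraries, 0Q replicate 1 and 100Q replicate 3. Its log2 fold change was -0.13 ± 0.07 (SE; 95% interval -0.29 to 0.021; edgeR quasi-likelihood, unadjusted p = 0.0849, Benjamini-Hochberg adjusted p = 0.987).

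GINS4, a subunit of the 4-part GINS complex, went the other way. It was at 47.2, 52.2 and 55.9 CPM in 0Q and 57.8, 67.5 and 56.9 CPM in 100Q, so that the groups did not overlap. The highest 0Q and the lowest 100Q library were about 1 CPM apart, and 100Q replicate 2 stood highest. Its log2 fold change was 0.22 (95% interval -0.026 to 0.47; edgeR quasi-likelihood, unadjusted p = 0.0761, Benjamini-Hochberg adjusted p = 0.987). Without 100Q replicate 2 that value was 0.14. The other GINS subunits had negative values, GINS1 -0.04, GINS2 -0.06 and GINS3 -0.24, and GINS3 was the lowest of all 45. GINS3 was at 35.9, 39.6 and 46.5 CPM in 0Q and 36.4, 35.9 and 31.9 CPM in 100Q, and the groups overlapped.

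MCM7 was the helicase gene with the highest level per length. It was at 547, 554 and 483 CPM in 0Q and 522, 571 and 461 CPM in 100Q, and the spread within a group was larger than the difference between them. Its log2 fold change was -0.03 (95% interval -0.22 to 0.15). MCM2, MCM3, MCM5 and MCM6 had -0.06, -0.06, -0.06 and -0.11, MCM10, which helps activate the helicase, had -0.13, and CDC45 had 0.11. The summed level of the 12 genes was 2652, 2678 and 2530 CPM in 0Q and 2478, 2625 and 2425 CPM in 100Q. The sums of the groups overlapped through 100Q replicate 2, which lay above 0Q replicate 3.

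Origin genes, which mark and license the sites where replication starts, split evenly, with 2 of 4 positive and a median of 0.011. ORC1, the ATP-binding subunit of the origin recognition complex, was at 52.2, 61.4 and 57.7 CPM in 0Q and 49.1, 50.7 and 54.5 CPM in 100Q, a log2 fold change of -0.15 (95% interval -0.39 to 0.094), which was -0.093 without 0Q replicate 2. CDT1, which brings the MCM ring to ORC, was at 158, 163 and 156 CPM in 0Q and 156, 186 and 171 CPM in 100Q, a log2 fold change of 0.11 (-0.074 to 0.28), which was 0.046 without 100Q replicate 2 and 0.16 without 100Q replicate 1. In both genes the groups overlapped. ORC6 had 0.08 and CDC6, the other loading factor, had -0.06. The sign of the median changed to -0.018 without 0Q replicate 1 and to -0.014 without 100Q replicate 3.

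Polymerase and fork genes had a median of -0.028, with 8 of 13 negative, and included the gene with the smallest p of the set. That median ran from -0.052, without 0Q replicate 3, to -0.0018, without 0Q replicate 2. PCNA (chromosome 20, 5114953 to 5126626, minus strand, hg38) was at 293, 303 and 309 CPM in 0Q and 268, 267 and 269 CPM in 100Q. All 3 libraries of 100Q lay below those of 0Q and within 2 CPM of each other. The mean was 301 ± 8.01 CPM (SD, n = 3) in 0Q and 268 ± 0.871 CPM (SD, n = 3) in 100Q, from 2098 to 2408 and 1065 to 3136 counts. The spread of the 100Q values is narrower than counting noise at 1065 counts would give, so it is not read as precision. The log2 fold change was -0.17 ± 0.07 (SE; 95% interval -0.32 to -0.019; edgeR quasi-likelihood, unadjusted p = 0.0301, Benjamini-Hochberg adjusted p = 0.987). The unadjusted p was above 0.05 without 0Q replicate 2, 0Q replicate 3, 100Q replicate 1 or 100Q replicate 3, and the log2 fold change stayed between -0.19 and -0.15 over all 13 alternatives, with an adjusted p of 0.801 to 1.0 by edgeR, DESeq2 or limma-voom.

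PRIM1 (chromosome 12, 56730438 to 56752374), the catalytic subunit of the primase that starts each new strand, was also lower. It was at 52.2, 54.6 and 53.2 CPM in 0Q and 44.9, 49.0 and 45.8 CPM in 100Q, and the groups did not overlap. Its log2 fold change was -0.20 (95% interval -0.43 to 0.035; edgeR quasi-likelihood, unadjusted p = 0.0899, Benjamini-Hochberg adjusted p = 0.987). PRIM1 shares its span with NACA on the same strand and with HSD17B6 on the other, so reads could have been split between them. The partner PRIM2 had 0.05, and POLA1 and POLA2 of the same polymerase alpha complex had -0.04 and -0.07.

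POLE (chromosome 12, 132623753 to 132687376), the catalytic subunit of the leading-strand polymerase, stood higher in 100Q. It was at 167, 156 and 172 CPM in 0Q and 196, 182 and 174 CPM in 100Q, with the groups apart by about 2 CPM. Its log2 fold change was 0.16 (95% interval -0.017 to 0.33; edgeR quasi-likelihood, unadjusted p = 0.0740, Benjamini-Hochberg adjusted p = 0.987). POLD1, its counterpart on the lagging strand, had -0.0042 (-0.18 to 0.17). The clamp loader subunits RFC2, RFC3, RFC4 and RFC5 had -0.06, 0.08, 0.02 and -0.03. FEN1 and LIG1, which trim and seal Okazaki fragments, had -0.05 and 0.01.

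**Figure D2:**
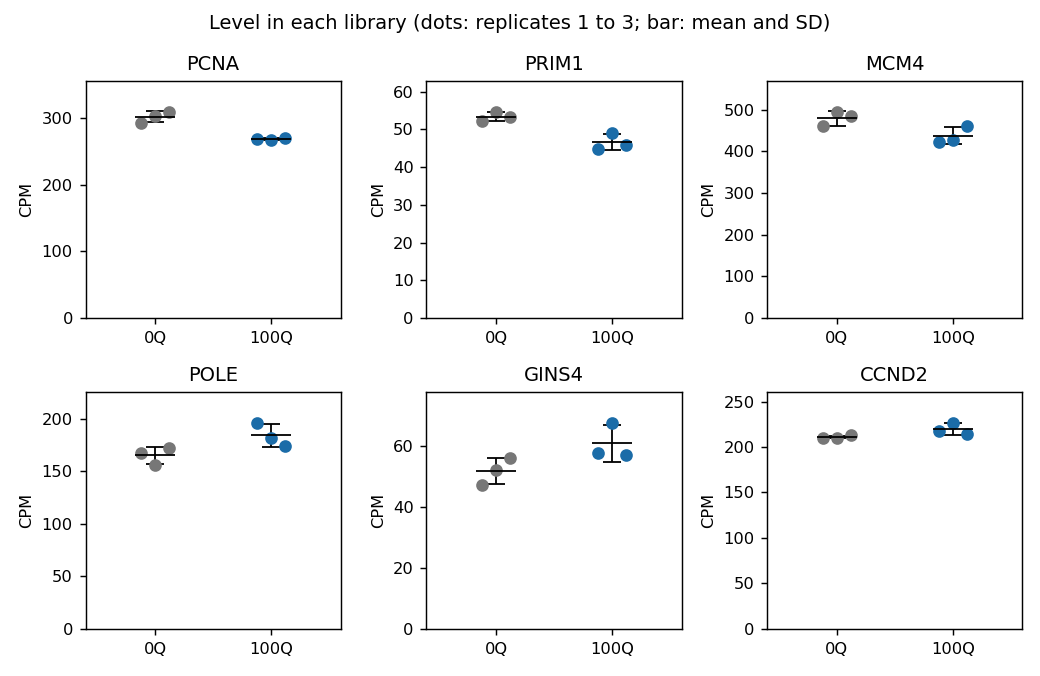
Level of 6 genes in each library (CPM, axis from 0; points are replicates 1 to 3 from left to right, bars the mean and SD, n = 3 per group). PCNA and PRIM1 lie lower in 100Q with no overlap, POLE, GINS4 and CCND2 higher with no overlap, and MCM4 meets at 460 CPM.

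The 3 genes of nucleotide supply all had negative values, with a median of -0.069, from -0.10 without 0Q replicate 2 to -0.042 without 100Q replicate 2. RRM2, the regulated subunit of ribonucleotide reductase, was at 200, 187 and 197 CPM in 0Q and 187, 162 and 192 CPM in 100Q, a log2 fold change of -0.10 (95% interval -0.28 to 0.075), which was -0.039 without 100Q replicate 2 and -0.15 without 100Q replicate 3. RRM1, the large subunit, was at 219, 208 and 225 CPM in 0Q and 214, 198 and 209 CPM in 100Q, a log2 fold change of -0.07 (-0.23 to 0.094). TYMS, which makes thymidylate, had -0.02 (-0.22 to 0.17). The groups overlapped for each of the 3 genes, and their summed level averaged 523 ± 16.5 CPM (SD, n = 3) in 0Q, against 497 ± 16.5 CPM (SD, n = 3) in 100Q.

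The G1 cyclins and their kinases leaned the other way, with positive values in 7 of 8 and a median of 0.034, which was 0.0069 without 100Q replicate 2 and 0.067 without 100Q replicate 1. CCND2, the main D-type cyclin of this line by level, was at 210, 210 and 213 CPM in 0Q and 217, 227 and 214 CPM in 100Q. The groups did not overlap, and the log2 fold change was 0.06 (95% interval -0.10 to 0.21; edgeR quasi-likelihood, unadjusted p = 0.466). CCND2 overlaps the protein-coding gene model ENSG00000285901 on the same strand.

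CDK6 was at 68.5, 90.7 and 82.4 CPM in 0Q and 95.9, 81.4 and 90.4 CPM in 100Q, a log2 fold change of 0.15 (-0.090 to 0.39), with overlapping groups. That value was 0.046 without 0Q replicate 1, the lowest library, and 0.24 without 0Q replicate 2. CDK4 was at 221, 239 and 226 CPM in 0Q and 223, 251 and 229 CPM in 100Q, a log2 fold change of 0.03 (-0.13 to 0.20). CDK2, the partner of cyclin E, had 0.04. CCND1 and CCND3 had 0.0037 and 0.03, and the cyclins E, CCNE1 and CCNE2, had -0.0065 and 0.03. CCNE2 was the least abundant gene of the set, with 74 to 166 counts in 100Q, and its interval was the widest, -0.38 to 0.44.

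The 8 genes summed to 726, 751 and 741 CPM in 0Q and 752, 790 and 759 CPM in 100Q. The sums lay higher in 100Q with no overlap, by less than 1 CPM at the closest pair, 0Q replicate 2 and 100Q replicate 1. CDK6, whose own groups overlapped, was at 90.7 and 95.9 CPM in that pair. This difference is larger than the gap, so the separation of the sums depends on CDK6. The sums also lay apart with RLE normalization or library size only. The mean helicase sum differed by -4.22% in 100Q and that of the G1 cyclins and kinases by 3.77%. Ratios of sums within a library do not depend on the scaling, and the 15 pairs of groups were compared after the sums were seen. In 4 of 15 pairs the groups did not overlap, and all 4 were among the 5 pairs with the G1 cyclins and kinases. These 4 pairs share that sum, whose groups were themselves apart, so they are not separate results. For comparison, the groups did not overlap for 10.6% of single genes, and no such share was computed for ratios of sums. The helicase sum was 3.65, 3.56 and 3.42 times the G1 cyclin and kinase sum in 0Q and 3.30, 3.32 and 3.19 times in 100Q. The polymerase sum was 2.03, 2.01 and 2.00 times it in 0Q and 1.95, 1.88 and 1.89 times in 100Q. No test was made of these ratios, because the genes were chosen with results of these data known.

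**Figure D3:**
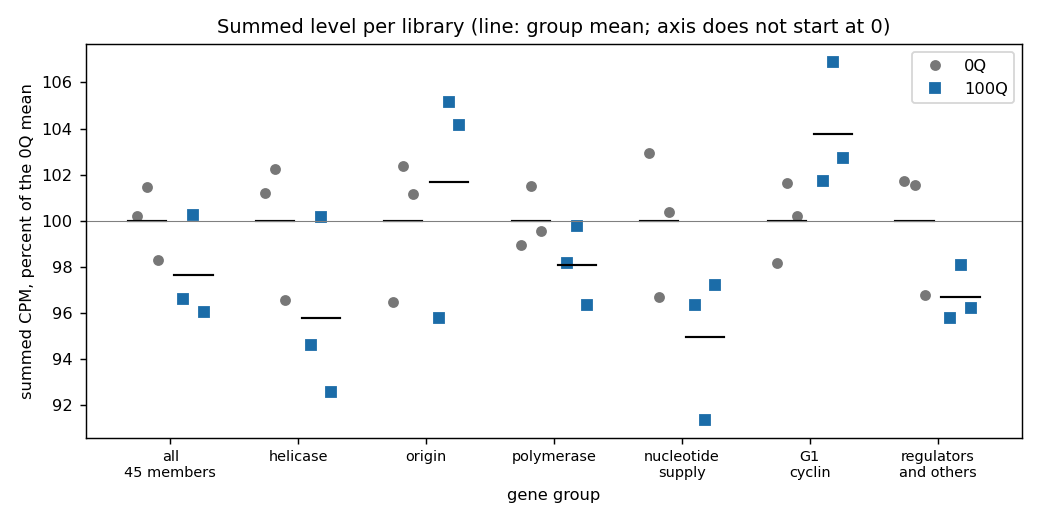
Summed CPM of each gene group in each library, as a percent of its 0Q mean (circles 0Q, squares 100Q, lines group means, n = 3 per group; the axis does not start at 0). The G1 cyclin and kinase sums of 100Q lie above those of 0Q, and the groups overlap in the other sums shown.

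The 5 regulators and others had a median of -0.027, with 3 negative and 2 positive, and the median ran from -0.065 without 100Q replicate 2 to -0.0017 without 0Q replicate 3. UNG, which removes uracil from DNA, was at 117, 93.7 and 84.1 CPM in 0Q and 84.1, 90.7 and 94.2 CPM in 100Q. The high value of 0Q replicate 1 set its log2 fold change of -0.13 (95% interval -0.38 to 0.12), which was 0.014 without that library. UHRF1, which reads hemimethylated DNA behind the fork, was at 226, 227 and 219 CPM in 0Q and 221, 211 and 204 CPM in 100Q, a log2 fold change of -0.08 (-0.24 to 0.079). SLBP, which binds the ends of histone mRNAs, was at 83.2, 93.7 and 96.3 CPM in 0Q and 89.1, 94.4 and 85.5 CPM in 100Q, a log2 fold change of -0.03 (-0.23 to 0.18). E2F1 and E2F2, activating members of the E2F family, had 0.06 and 0.05.

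Levels were compared between genes per length, as CPM per kb of merged exons over the 6 libraries. PCNA was highest at 203 CPM per kb, with a range over libraries of 191 to 220, and MCM7 followed at 105 (92.9 to 115). MCM3 at 90.2, CDK4 at 74.8, MCM2 at 73.4 and CDT1 at 59.7 came next. In this order MCM7 and MCM3 overlapped in range, as did CDK4 and MCM2, and MCM2 and CDT1. The least abundant were CCND1 at 5.60, PRIM2 at 4.74 and CCNE2 at 3.62. RRM1 at 50.1 was the highest of nucleotide supply, and SLBP at 48.0 the highest of the regulators and others.

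The 6 subunits of the MCM ring, which are used in equal numbers, were not equally abundant. Per kb of merged exons the order was MCM7, MCM3, MCM2, MCM6 at 48.8, MCM4 at 46.5 and MCM5 at 31.0, with MCM6 and MCM4 overlapping in range (43.3 to 52.7 and 43.0 to 50.2). Merged exons overstate the length of genes with long minor transcripts. Per kb of the transcript with the longest coding sequence the order was MCM7 at 212, MCM4 at 145, MCM3 at 102, MCM2 at 101, MCM5 at 65.1 and MCM6 at 53.7, and PCNA at 210 came second to MCM7 over all 45 genes, within the range of its libraries. By coding transcript MCM3 and MCM2 overlapped in range (96.3 to 108 and 91.2 to 111). MCM7 led the ring by either length, but per kb of merged exons its range overlapped that of MCM3 (92.9 to 115 and 84.8 to 94.8). It shares its span with the protein-coding gene AP4M1 on the other strand. The places of MCM4, MCM5 and MCM6 depended on the length used.

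**Figure D4:**
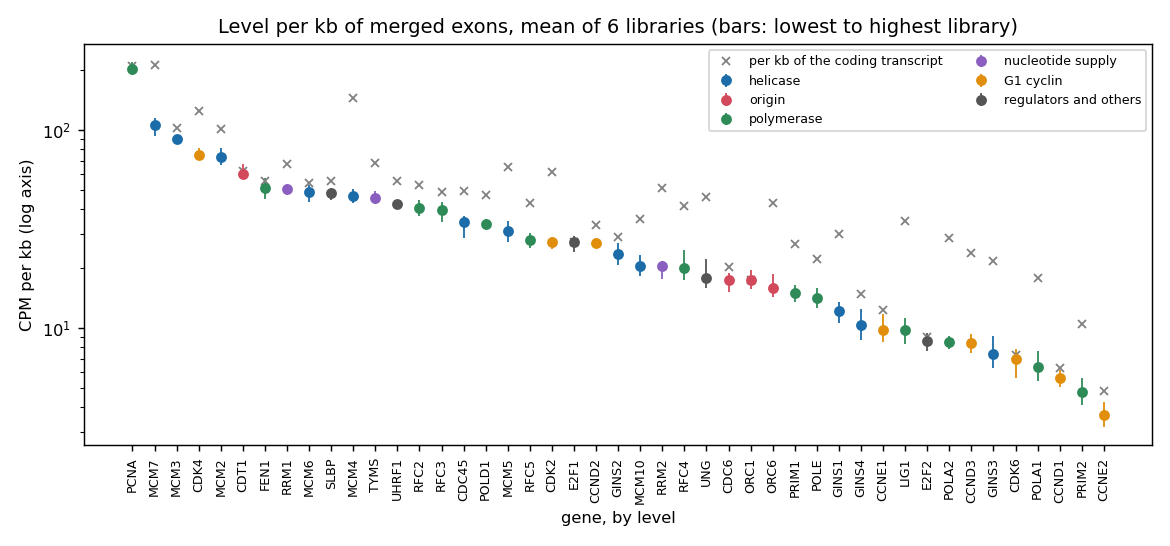
Level of the 45 genes in CPM per kb of merged exons (log axis; points are means of 6 libraries, bars the lowest to the highest library, colours the roles; crosses use the length of the coding transcript). PCNA is highest at 203 and CCNE2 lowest at 3.62, and MCM4 is the gene of the ring that moves most between lengths.

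Queuosine-modified tRNAs read the codons NAC and NAU, so the share of codons read by these tRNAs was taken from the longest coding sequence of each gene in GENCODE release 44. The replication genes were ordinary in this respect. Their median was 13.7% of codons, against 13.5% over 19534 coding genes, and 54.2% of these codons ended in C (median), against 57.1%. PRIM1 had the highest share, 18.5% (85 of 459 codons, percentile 95.8 of all coding genes), and CDT1 the lowest, 7.69% (42 of 546, percentile 4.30). PCNA had 15.3% (40 of 261). The windows of 30 codons richest in such codons in these 3 genes show how they lie, with the codons in capitals and T in place of U.
PRIM1 (codons 13 to 42): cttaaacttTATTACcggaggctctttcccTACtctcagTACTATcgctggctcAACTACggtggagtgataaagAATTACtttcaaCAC
PCNA (codons 93 to 122): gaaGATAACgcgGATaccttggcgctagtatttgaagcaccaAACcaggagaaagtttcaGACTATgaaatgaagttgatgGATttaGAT
CDT1 (codons 502 to 531): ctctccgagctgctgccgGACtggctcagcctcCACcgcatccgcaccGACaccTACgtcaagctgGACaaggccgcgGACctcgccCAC

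These windows held 10, 8 and 7 such codons, of which 7, 3 and 7 ended in C. The 4 origin genes had the lowest median share among the roles, 10.3%, and nucleotide supply the highest, 15.7%. In the choice of the last base the genes ranged from RFC4, with 23.7% ending in C (percentile 1.66), to CCND1, with 88.6% (percentile 95.6). Across the 45 genes the log2 fold change and the share of these codons had a Spearman rho of -0.18, and the share ending in C a rho of 0.18. Over 12673 tested coding genes the rho of the codon share was -0.093, and over 12672 that of the C-ending share was 0.14. These are descriptions across genes measured in the same 6 libraries, and codon shares also follow base composition.

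**Figure D5:**
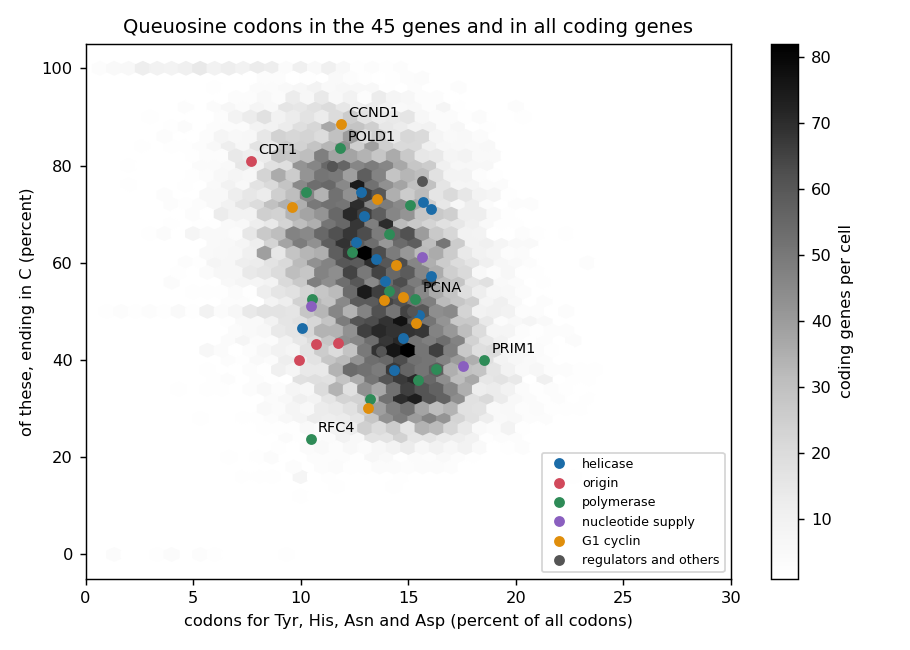
Share of codons read by queuosine tRNAs (x axis, percent of codons) and the share of these that end in C (y axis, percent), for the 45 genes coloured by role and for all coding genes in grey. The 45 genes spread through the grey cloud, from CDT1 at 7.69% to PRIM1 at 18.5% on the x axis.

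The rest of the pathway was read from a list of 72 other replication and G1/S genes, listed by role, of which 71 were tested. CCNA1, the germline cyclin A, had 0 to 6 counts per library and was not. The edgeR quasi-likelihood test called 0 of 71 over all genes, DESeq2 called 0 and limma-voom called 0. At an unadjusted p under 0.05 there were 2 higher and 1 lower, against 4.72% of all genes. The median log2 fold change was -0.031, with 49 of 71 negative (50.6% of all genes). The groups did not overlap for 4 genes higher and 5 lower, against 5.39% and 5.2% of all genes. The sum of the list was 5897, 5882 and 5901 CPM in 0Q and 5742, 5724 and 5817 CPM in 100Q, a difference of means of -2.24%, with all 3 libraries of 100Q below those of 0Q. With library size only, the groups overlapped through 100Q replicate 3, the highest library, and the difference was -1.02%.

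TICRR, which starts origin firing together with TOPBP1, was at 76.1, 80.9 and 73.6 CPM in 0Q and 103, 83.6 and 94.0 CPM in 100Q. Its log2 fold change was 0.29 (95% interval 0.072 to 0.50; edgeR quasi-likelihood, unadjusted p = 0.0122, Benjamini-Hochberg adjusted p = 0.987). E2F7, a repressor of the E2F family, was at 34.8, 35.8 and 34.7 CPM in 0Q and 47.9, 41.4 and 40.0 CPM in 100Q, a log2 fold change of 0.29 (0.023 to 0.56). GMNN, the inhibitor that keeps CDT1 from relicensing origins, was at 119, 124 and 120 CPM in 0Q and 116, 99.9 and 98.7 CPM in 100Q, a log2 fold change of -0.21 (-0.40 to -0.016). The groups did not overlap in any of the 3 genes, and none passed over all genes.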

How the data were processed

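Messenger RNA libraries of 6 HEK293T samples, 3 per group, were compared. The authors deposited estimated counts for each Ensembl gene, without normalization, made with STAR and RSEM after FastQC per the submitters' processing notes, which give no versions; the series design names hg38. The labels name no annotation, strand setting or molecular identifiers used in counting, so 16 of the 45 genes, which overlap a protein-coding gene, are uncertain where reads were split. No replicate pair was within counting noise, with a chi-square of 5.36 to 14.2 for each degree of freedom.

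Symbols, spans and coding sequences came from GENCODE release 44 and promoters from RefSeq. Counts were rounded and tested over 14905 genes with edgeR 4.0.16 in R 4.3.3 (quasi-likelihood, TMM, default filter with minimum count 10, Benjamini-Hochberg over all genes, threshold 0.05). DESeq2 1.42.0, limma-voom (limma 3.58.1), RLE normalization, library size only, no filter, a mean count of at least 50, the replicate number as a block and leaving out each library were alternatives. Checked on simulated data of 14905 genes for this comparison, the test recovered 52% of genes changed 1.5-fold and 84% of genes changed 2-fold, with 10 wrong among 173 calls. Intervals are 95% intervals of the fitted log2 fold change. Values in every library were given for genes with an unadjusted p under 0.05, genes whose groups did not overlap, and, in each role, the 2 genes of smallest p and the highest per kb, and for other pathway genes with an unadjusted p under 0.05; GINS3 was added after its values were seen. The members and lists were chosen with earlier results of these data known.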

Additional observations from a re-analysis of the deposited data

How the results depend on the processing

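No member passed over all genes in any of the 13 alternatives. With library size only, the count at an unadjusted p under 0.05 was 2 in place of 1, and the helicase median was -0.043 in place of -0.061. The scalings of group sums were chosen after seeing the data. Leaving out 1 library gave 0 to 3 such members and 7 to 11 members whose groups did not overlap, against 5, since fewer libraries overlap less often (18.9% to 22.5% of all genes). Over these fits the median of all 45 ran from -0.042 to -0.012, the polymerase median from -0.052 to -0.0018, the nucleotide supply median from -0.10 to -0.042, the G1 cyclin median from 0.0069 to 0.067 and the median of regulators and others from -0.065 to -0.0017. The helicase median ran from -0.10 to -0.044, the origin median from -0.018 to 0.039, and the median of the other replication and G1/S genes from -0.051 to -0.036, with 1 to 5 of them at an unadjusted p under 0.05. Among named genes the sign changed in some of them on leaving out 1 library for UNG (-0.23 to 0.014), MCM7 (-0.11 to 0.048), SLBP (-0.090 to 0.014) and CDK4 (-0.017 to 0.066); the other 241 of 247 values of named genes kept their direction, and the cause of these shifts was not tested. Values also moved by over 1.5 times, with no change of sign, for RRM1 (-0.10 to -0.042), UHRF1 (-0.11 to -0.052) and CCND2 (0.030 to 0.073), as for CDK6, RRM2, CDT1, ORC1 and GINS4 above. The replicate block left 0 members called and 1, PCNA, at an unadjusted p under 0.05. Whether the replicate numbers pair the samples was not settled. Same-numbered libraries had correlations of deviations of 0.0043, 0.015 and 0.25. The last, of replicate 3, was the highest of all pairs, and the next was 0.15, of 0Q replicate 1 with 100Q replicate 2. The core GGCGCG alone was found in 29 of the 38 members with a window, against 32.0% of all genes. The median level was 23.6 CPM per kb of merged exons and 42.6 per kb of the coding transcript. With 3 libraries a group, changes under 1.5-fold are at the limit of what the test recovers.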

Other observations

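Inhibitors of cyclin-dependent kinases, which act on the same G1 kinases, were read after their values were seen. CDKN1A (p21) was at 52.6, 51.7 and 47.2 CPM in 0Q and 53.5, 67.3 and 59.6 CPM in 100Q, a log2 fold change of 0.25 (95% interval -0.00092 to 0.50). CDKN1B (p27) was at 49.8, 46.3 and 47.7 CPM in 0Q and 38.3, 38.2 and 45.6 CPM in 100Q, a log2 fold change of -0.22 (-0.48 to 0.037). The groups did not overlap in either gene, and neither passed over all genes (edgeR quasi-likelihood, Benjamini-Hochberg adjusted p = 0.987 for both). CDKN2C, CDKN1C and CDKN2D had 0.02 (-0.21 to 0.25), -0.24 (-0.94 to 0.45) and -0.094 (-1.19 to 1.00), and their groups overlapped. The RB family members RB1, RBL1 and RBL2 had -0.08, -0.03 and 0.15, and E2F3 and E2F8 had -0.02 and -0.23, each with an interval that includes 0.

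Members with an E2F-type match and members with a window and no match had median log2 fold changes of -0.050 over 12 genes (9 negative) and -0.026 over 26 genes (16 negative). No test was made of this difference.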
